A study of Mus musculus with 10 samples.

Results

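The genes described here are those for the proteins of the cytosolic ribosome in E14 mouse embryonic stem cells, compared between wild-type cells and cells carrying the Y347A mutation of ANKRD11. Members were chosen by symbol: Rpl or Rps followed by a number and an optional suffix, with Rplp0, Rplp1, Rplp2 and Rpsa added and Rpl22 and Rpl22l1 left out. This gave 88 of the 55401 rows of the deposited expression table, 52 for the large and 36 for the small subunit. Of these, 76 are the main genes (45 large, 31 small) and 12 are paralogues or retrocopies, which carry an extra suffix or number, such as Rpl39l beside Rpl39. By annotation 82 members are protein-coding genes, and the other 6 are processed pseudogenes. Fau and Rack1 also encode ribosomal proteins but fall outside the naming rule, and Fau is given with the related genes.

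The ribosome is built from a small subunit, which decodes the mRNA, and a large subunit, which forms peptide bonds and holds the tunnel through which the new chain leaves. Most of its proteins are needed in equal amounts, and their short, abundant mRNAs are among the most strongly expressed of a dividing cell. Their promoters are known for a pyrimidine-rich start site (the terminal oligopyrimidine or TOP motif), through which translation of these mRNAs is tied to nutrient signalling by mTOR and LARP1. A few members have a second copy in the genome with its own expression pattern: RPL10L and RPL39L are known from male germ cells, where they replace proteins encoded on the X chromosome, and RPL3L from heart and skeletal muscle.

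Poly(A) RNA was sequenced in 10 libraries. Untreated wild-type E14 cells gave 4 libraries, in 2 numbered sets with 2 libraries each, and E14 cells edited with CRISPR/Cas9 to the ANKRD11 Y347A genotype gave 6 libraries, in 3 sets with 2 libraries each. ANKRD11 is a nuclear protein with ankyrin repeats, and the series concerns its binding to cohesin. The labels give the tissue of origin as embryo and leave unstated what the numbered sets are, be it clones, cultures or preparations. Clonal differences and the mutation therefore cannot be told apart within a set, and p-values measure only the spread between these sets, which may be technical. The comparison asks whether ribosomal protein transcripts differ between the genotypes.

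Levels are deposited as TPM, a scale of transcript abundance in which each gene's reads are divided by transcript length and scaled so that every library has the same total. A library's sum lay between 999999 and 1000001 TPM, so sequencing depth and its counting error are unknown. Changes below are differences of log2(TPM + 1), mutant minus wild type, between the means of the sets, with a standard error (SE). Means ± SD are over set means (n = 2 wild-type and n = 3 mutant sets). A gene is called when limma's test on the set means gives a Benjamini-Hochberg adjusted p under 0.05 over the 12797 genes that averaged 1 TPM or more. All 76 main genes and 11 of the 12 paralogues reached that level, and Rpl32l, a retrocopy listed at no more than 0.94 TPM, did not.

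The cells carried the markers of their label: all 12 embryonic stem cell markers were above the level for testing, with a summed level of 11077 to 11802 TPM in the wild-type and 9921 to 11803 TPM in the mutant libraries. Within that list limma called 3 genes lower (Nanog -0.68, Lin28a -0.77 and Zfp42 -0.50 on the log2 scale) and 2 higher, Tdgf1 among them. Of all tested genes 10.5% were called lower and 6.97% higher. These named markers kept their direction but did not stay called each time a set or library was left out. Of 10 fibroblast feeder markers, 7 stayed under 1 TPM in every library, with Dcn and Postn at 0, and the list summed to 5.0 to 7.51 TPM in the wild type and 5.70 to 7.01 TPM in the mutant. Of 10 primitive endoderm markers, 7, including Gata4, Gata6 and Sox17, stayed under 1 TPM everywhere, while Col4a1 and Lama1 rose by 0.92 and 0.38. That list summed to 28.4 to 33.5 TPM in the wild type and 38.0 to 47.9 TPM in the mutant, and its part in the ribosomal protein values was not tested. Mitochondrially encoded transcripts took 6.61 ± 0.437% of TPM in the wild type and 7.84 ± 0.874% in the mutant. Mutant set 1 stood apart from the other sets for ribosomal proteins, so the shares of TPM, the direction counts and medians, Rpl39l and Rpl10 are also given without it.

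Ribosomal protein genes were among the most highly expressed genes of both genotypes. Of the 100 genes with the highest mean TPM 60 were members, and of the 10 highest 3 were. The 76 main genes ranged from 253 TPM for Rpl29 to 9487 TPM for Rps24 with a median of 2895 TPM. The share of all TPM in the 88 genes was 24.1 and 24.5% in wild-type set 1, 24.8 and 25.1% in wild-type set 2, 26.2 and 27.0% in mutant set 1, 24.7 and 24.4% in mutant set 2, and 25.23 and 25.02% in mutant set 3. Both libraries of mutant set 1 lay above every other library, whereas mutant sets 2 and 3 lay in or just above the wild-type range. The means were 24.6 ± 0.498% in the wild type and 25.4 ± 1.06% in the mutant, a difference smaller than the SD between mutant sets; without mutant set 1 the mutant mean was 24.8 ± 0.402% (SD, n = 2). A share of TPM is relative: from bulk RNA it cannot be told whether a cell type is scarcer or holds less RNA per cell, and the total RNA per cell is unknown.

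Large-subunit main genes took 12.99 ± 0.337% of TPM in the wild type and 13.3 ± 0.557% in the mutant, and small-subunit main genes 10.9 ± 0.140% and 11.4 ± 0.509%. Without mutant set 1 the mutant shares were 13.03 ± 0.139% and 11.15 ± 0.276%. The paralogues together took 0.680 ± 0.0198% and 0.673 ± 0.0121%. The ratio of large-subunit to small-subunit TPM lay between 1.16 in mutant set 3 and 1.20 in wild-type set 2 over the 10 libraries. With mitochondrially encoded transcripts left out of the total, the share of the members was 26.3 ± 0.410% in the wild type and 27.6 ± 0.896% in the mutant. The set means were then 26.1 and 26.6% in the wild type and 28.6, 26.9 and 27.3% in mutant sets 1, 2 and 3. Every mutant set mean was above both wild-type set means, while libraries of mutant set 2 and wild-type set 2 overlapped.

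**Figure D1:**
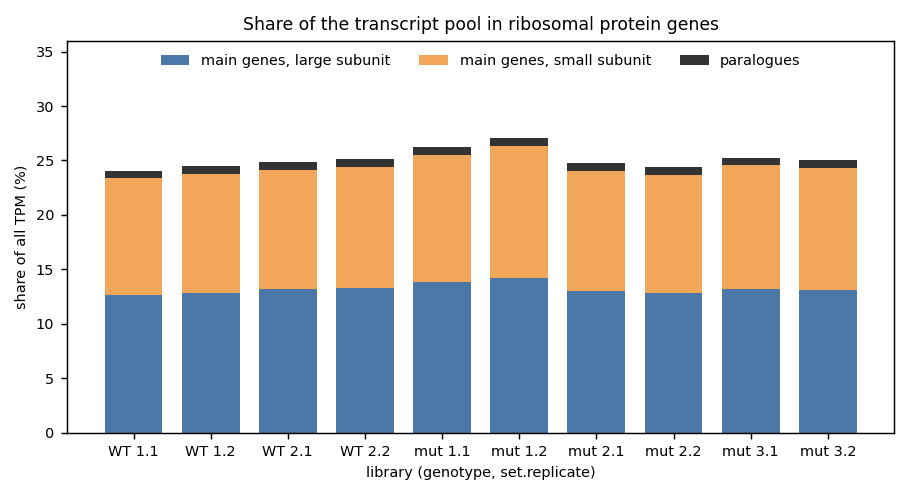
Share of all TPM (%, vertical axis) in ribosomal protein genes for each library (horizontal axis, genotype and set.replicate), stacked as large-subunit main genes, small-subunit main genes and paralogues. The 2 libraries of mutant set 1 reach 26.2 and 27.0%, above the 24.1 to 25.2% of the other 8.

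Few ribosomal protein genes passed the test between the genotypes. Of the 87 tested members 1 was called, Rpl39l, which fell, and 0 were called higher, while 17.5% of all tested genes were called (6.97% higher and 10.5% lower). The 76 main genes included 0 called by limma on set means. At an unadjusted p under 0.05, 9 members were higher and 7 lower, of which 7 and 5 were main genes; 14.5% of all genes were higher and 20.5% lower at that level. The smallest adjusted p of a main gene was 0.0543 in limma, for Rpl7a. With all 10 libraries in limma and sets as random effects, 9 main genes were higher and 7 lower, where 10.4% of all genes were higher and 16.1% lower. With a correction of transcript length in each library, 5 main genes were higher and 0 lower by limma, where 8.75% and 9.57% of all genes were.

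The changes of the main genes were small in size as well. Their log2 fold changes ran from -0.23 (Rpl41) to 0.22 (Rps16), which as ratios of mean TPM is 0.853 to 1.16. The 95% interval of each of the 76 main genes lay within 1.5-fold in either direction, and the median interval reached 0.15 to either side on the log2 scale. A difference under 0.25 was measured for all 76 main genes and 84 of the 87 members, against 57.2% of all tested genes. Replicates within a set were also close: the median difference between the 2 libraries of a set was 0.044 log2 units over members and 0.113 over all genes, the members being far above the median level of a tested gene.

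Both subunits had a median slightly above the wild type. The median log2 fold change was 0.08 for the 45 large-subunit main genes and 0.08 for the 31 small-subunit ones, beside -0.04 over all tested genes. Of the main genes 54 were above 0 and 22 below, where 45.3% of all genes were above 0. All 6 mutant libraries lay above all 4 wild-type libraries for 18 main genes and below them for 8, beside 12.4% and 19.4% of all genes. By subunit these were 11 above and 7 below among large-subunit genes and 7 above and 1 below among small-subunit genes. Over all tested members the medians were 0.03 for the large and 0.08 for the small subunit, and with quantile normalization -0.0071 and 0.0036. That method gives every library the same distribution of levels, so it can itself remove a shift shared by the highest genes. Without mutant set 1 and without that method, the medians over members, paralogues included, were -0.015 for the large and 0.037 for the small subunit. Over the main genes of both subunits the median was then 0.036, beside -0.023 over all tested genes. The main genes whose libraries did not overlap were then 18 above and 13 below (15.4% and 21.6% of all genes). The main genes above 0 were then 47 and those below 29, where 46.7% of all genes were above 0.

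**Figure D2:**
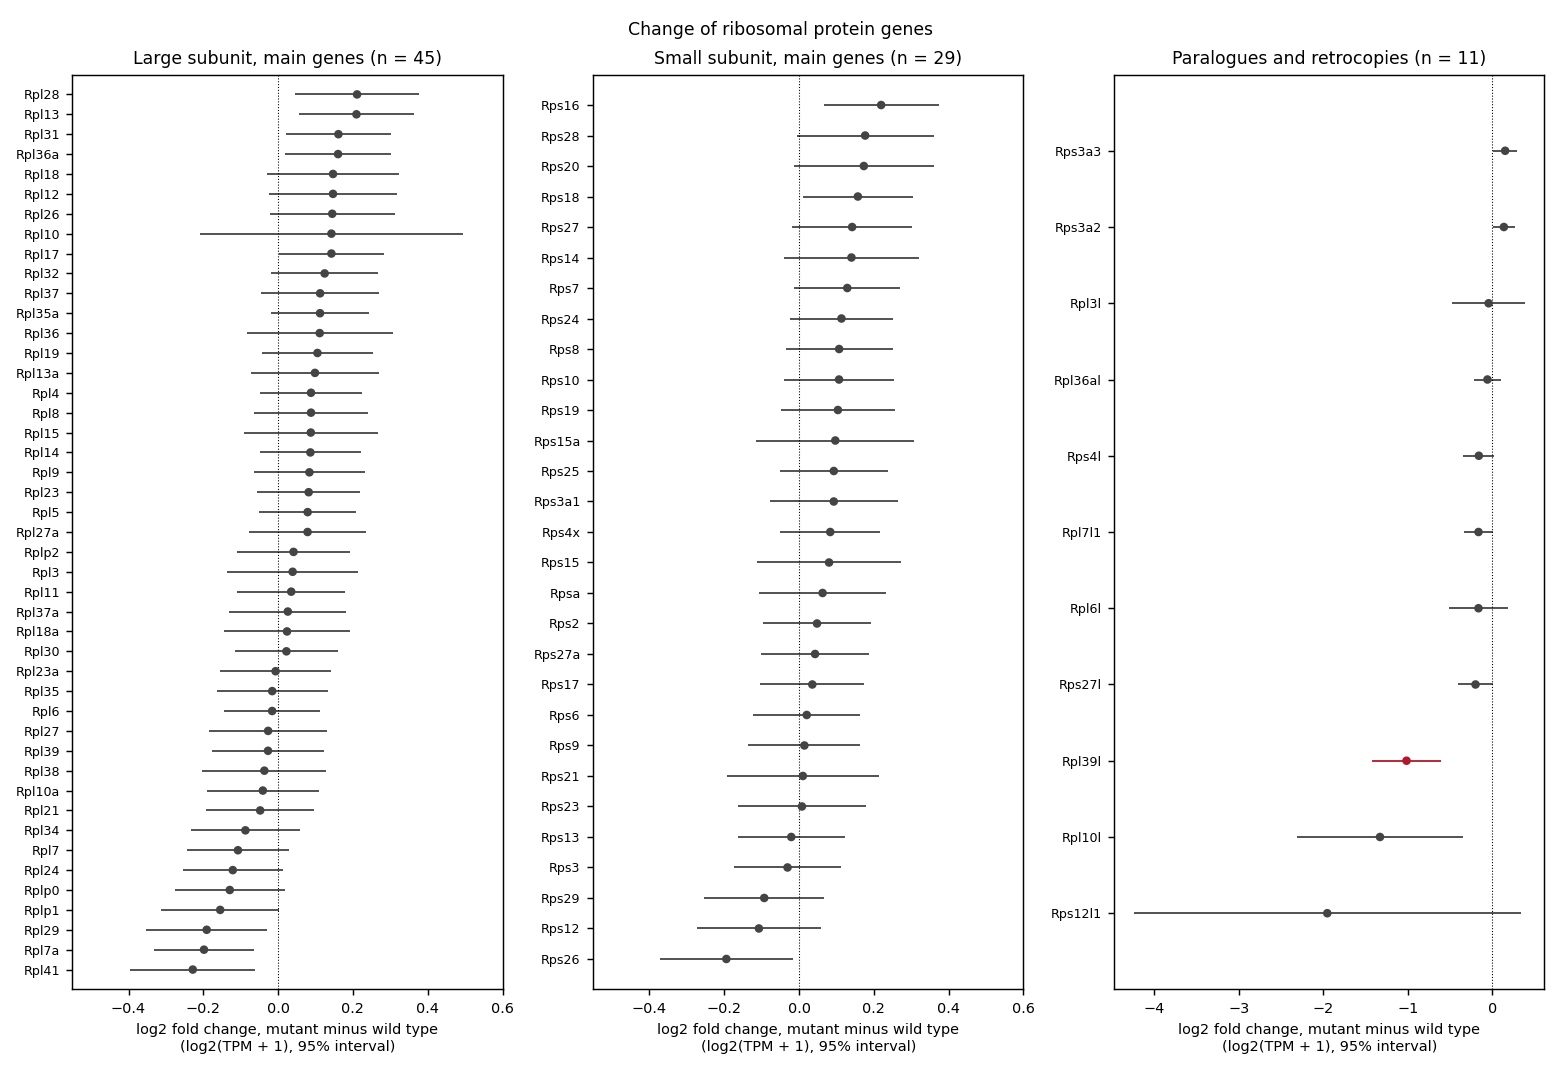
Log2 fold change of tested members (points) with its 95% interval (lines), mutant minus wild type on the log2(TPM + 1) scale, for large-subunit main genes, 29 of the 31 small-subunit main genes and paralogues, the last on a wider axis. Main genes lie between -0.23 and 0.22, and the called gene, Rpl39l at -1.02, is in red.

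The levels of the most abundant members show how narrow the spread was. Rps24, a small-subunit protein whose gene is mutated in some patients with Diamond-Blackfan anaemia, was listed at 9111 and 9030 TPM in wild-type set 1, 9109.9 and 8908 in wild-type set 2, 9645 and 10592 in mutant set 1, 9373 and 9709 in mutant set 2, and 9669 and 9724 in mutant set 3. Its mutant libraries all lay above its wild-type libraries with 1 library of mutant set 1 highest, and the change of 0.11 ± 0.06 was not called (limma, adjusted p = 0.21). Rpl23a, which sits at the tunnel exit where factors for nascent chains dock, was at 8053 ± 146 TPM in the wild type and 8019 ± 343 TPM in the mutant, with overlapping libraries. Rpl13a, a large-subunit protein also known from translational silencing after interferon, was at 6582 ± 595 TPM in the wild type and 7038 ± 173 TPM in the mutant, and its libraries overlapped as well. Rps2, which lines the mRNA entry of the small subunit, had the median change of the members, 0.05 ± 0.06, with levels of 6139 ± 62.2 TPM in the wild type and 6349.7 ± 270.3 TPM in the mutant.

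The stalk of the large subunit, which recruits the GTPases of elongation, is formed by Rplp0 with the acidic proteins Rplp1 and Rplp2; of these, Rplp0 and Rplp2 were added after their values were seen. Rplp1 was listed at 6916 and 7082 TPM in wild-type set 1, 6899.8 and 7180.4 in wild-type set 2, 6594 and 6855 in mutant set 1, 6159.9 and 6183 in mutant set 2, and 6077 and 5999 in mutant set 3. Every mutant library was below every wild-type library, with mutant set 1 nearest to them, and the change of -0.15 ± 0.07 was not called (limma, adjusted p = 0.15). Rplp0 had a change of -0.13 ± 0.06 and its libraries did not overlap either, whereas Rplp2 overlapped at 0.04 ± 0.06. Rpl12, which joins the stalk base, had the opposite sign, 0.15 ± 0.07, with all mutant above all wild-type libraries.

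The main genes nearest to the threshold were picked after their values were seen, and went in both directions. Rpl7a, an early-assembling large-subunit protein, was listed at 3339 and 3343 TPM in wild-type set 1, 3377 and 3335 in wild-type set 2, 2918 and 3013 in mutant set 1, 2916 and 3013 in mutant set 2, and 2803 and 2853 in mutant set 3. The wild-type libraries lay within a narrow band and all 6 mutant libraries below it, with a change of -0.20 ± 0.06 (limma, adjusted p = 0.0543). Rpl41, a very short peptide at the bridge between the subunits, was listed at 4686 and 5073 TPM in wild-type set 1, 5296 and 5449 in wild-type set 2, 4430.4 and 4655 in mutant set 1, 4604 and 4227 in mutant set 2, and 4129 and 4194 in mutant set 3. Its mutant libraries were again all lower, and the change of -0.23 ± 0.07 missed the threshold in limma with an adjusted p of 0.0667. Rpl29 at -0.19 ± 0.07 had the same order of libraries, with an adjusted p of 0.0973 in limma. For Rps26, which touches the mRNA at the exit channel, the change was -0.19 ± 0.08 with an adjusted p of 0.116 in limma, and 1 library of mutant set 1 overlapped the wild type.

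On the higher side stood Rps16, a small-subunit protein with a tail that reaches the P-site tRNA, listed at 1372 and 1531 TPM in wild-type set 1, 1494 and 1561 in wild-type set 2, 1732 and 1921 in mutant set 1, 1781 and 1625 in mutant set 2, and 1685 and 1665 in mutant set 3. All mutant libraries exceeded all wild-type libraries, and the change was 0.22 ± 0.06 (limma, adjusted p = 0.0595). Rpl13 and Rpl28, both of the large subunit, changed by a like amount without being called, 0.21 ± 0.06 and 0.21 ± 0.07, with adjusted p of 0.0659 and 0.0808 in limma. The Rpl13 gene is on chromosome 8 (GRCm38, 123102350 to 123105244, plus strand), starting 60073 bases beyond the higher genomic coordinate of Ankrd11. Its mutant libraries did not overlap the wild type. Rpl28 mutant libraries were also all higher, the lowest of them, 1406 TPM, just above the highest wild-type library, 1399 TPM.

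Several proteins known for a role beyond the core ribosome had small, uncalled changes. Rpl5 and Rpl11, which with 5S rRNA bind MDM2 and so stabilise p53, had changes of 0.08 ± 0.05 and 0.03 ± 0.06. Rps6, the substrate of S6 kinase, had a change of 0.02 ± 0.06, and Rpl38, needed for translation of Hox mRNAs in the mouse embryo, -0.04 ± 0.07. Rps27a, which is made as a fusion with ubiquitin, was at 0.04 ± 0.06, and Rpsa, also known as a laminin receptor, at 0.06 ± 0.07. Rps19, the first gene linked to Diamond-Blackfan anaemia, was at 0.10 ± 0.06. These genes were named for their roles after the values were seen, and none of them was called by limma; their adjusted p ran from 0.294 to 0.83.

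Mutant set 1 was the highest of the 5 sets for 54 of the 76 main genes and the lowest for 0, while wild-type set 1 was the lowest for 35. Measured from the mean of the 4 wild-type libraries, the median main gene was at -0.018 and 0.018 log2 units in the wild-type sets, 0.12 in mutant set 1, -8.8e-05 in mutant set 2 and 0.049 in mutant set 3. On this scale mutant set 2 was level with the wild type, and mutant sets 1 and 3 were above it. The median over all tested genes was 0.0085 and -0.0085 in the wild-type sets and -0.063, -0.047 and 0 in mutant sets 1, 2 and 3. The main-gene median was above the all-gene median in every mutant set and in wild-type set 2. Large-subunit genes gave 0.11, 0.0017 and 0.026 in the mutant sets and small-subunit genes 0.14, -0.0020 and 0.070. The share of mitochondrially encoded transcripts in the same sets was 6.94, 8.69 and 7.90%, and its part in these offsets was not tested.

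**Figure D3:**
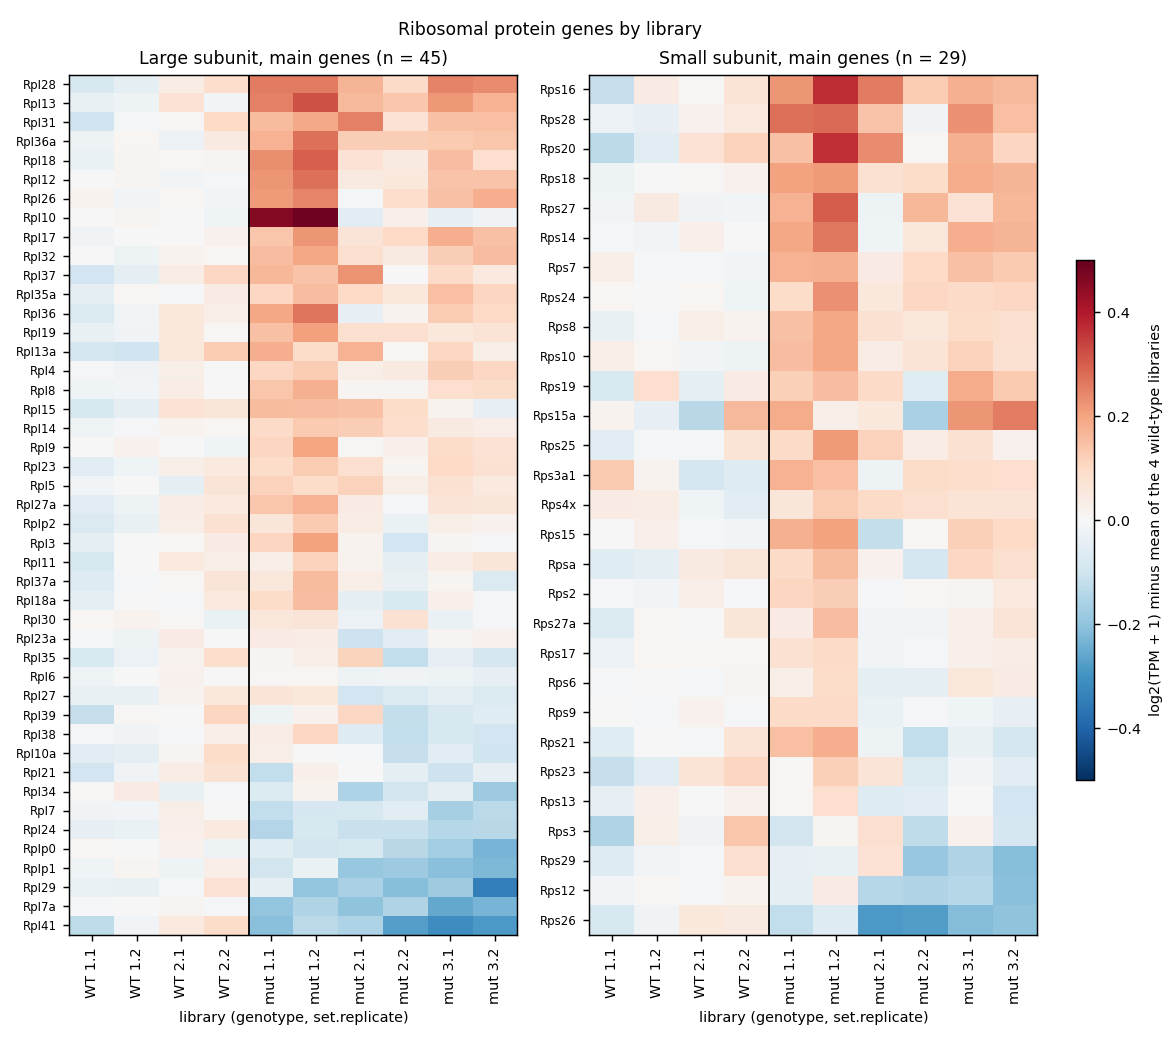
Each cell gives log2(TPM + 1) of a main gene (rows, ordered by fold change, with 29 of the 31 small-subunit genes shown) in a library (columns, genotype and set.replicate) minus the mean of the 4 wild-type libraries. The columns of mutant set 1 are the reddest, with a median of 0.12 over main genes, and Rpl10 stands out in that set.

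Among the paralogues and retrocopies 1 gene, Rpl39l, fell in the mutant, and the other tested copies were not called. Of the 11 tested, 9 had a log2 fold change below 0 and 2 above, with a median of -0.16, where 45.3% of all tested genes were above 0 and their median was -0.04. The 9 include Rps12l1, which was above 0 TPM in wild-type set 1 only. Rpl39l is an autosomal copy of the X-linked gene Rpl39, whose small protein lines the exit tunnel. Both open reading frames have 153 bases before the stop codon, and they are shown to set the coding sequences of the called copy and its main gene side by side; capitals mark the 23 positions at which they differ (85.0% identity). The lines read 5′ to 3′ from GENCODE M21 on GRCm38, Rpl39 on the minus strand of X between 37082704 and 37085127 and Rpl39l on the plus strand of chromosome 16 between 10174310 and 10174462.
Rpl39: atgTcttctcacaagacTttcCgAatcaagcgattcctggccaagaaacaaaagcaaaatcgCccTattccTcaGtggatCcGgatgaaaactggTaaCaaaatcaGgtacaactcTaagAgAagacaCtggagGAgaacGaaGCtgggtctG
Rpl39l: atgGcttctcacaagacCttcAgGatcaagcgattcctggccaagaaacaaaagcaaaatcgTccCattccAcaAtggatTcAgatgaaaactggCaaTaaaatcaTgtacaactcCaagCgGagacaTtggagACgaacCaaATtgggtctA

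Rpl39l was listed at 85.2 and 94.5 TPM in wild-type set 1, 105 and 111 in wild-type set 2, 43.1 and 47.6 in mutant set 1, 66.0 and 56.4 in mutant set 2, and 42.5 and 38.3 in mutant set 3. All 6 mutant libraries were below all 4 wild-type libraries, and the highest mutant library, in set 2, reached 66.0 TPM against 85.2 TPM for the lowest wild-type one. Mean levels were 98.9 ± 12.8 TPM in the wild type and 49.0 ± 10.9 TPM in the mutant, a change of -1.02 ± 0.17 (limma, adjusted p = 0.0146). Leaving out wild-type set 1, wild-type set 2 or mutant set 1 kept the direction but lost the call, with adjusted p of 0.083, 0.143 and 0.058 in limma and changes of -1.15, -0.88 and -0.97. It was also uncalled without the filter on low genes (adjusted p = 0.064 in limma) and with only library 1 of each set (0.053).

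The main gene was not called. Rpl39 was listed at 1047 and 1140.2 TPM in wild-type set 1, 1136 and 1221 in wild-type set 2, 1116 and 1153 in mutant set 1, 1218 and 1043 in mutant set 2, and 1072 and 1087 in mutant set 3, with overlapping libraries and a change of -0.03 ± 0.06. Rpl39l therefore stood at 8.69 ± 0.666% of the Rpl39 level in the wild type and 4.39 ± 0.898% in the mutant. Of the 31-base words in the longest Rpl39l transcript, 1.03% also occur in Rpl39 and 2.19% in all other genes together, Rpl39 included, so few reads could be shared between genes.

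Rpl10l is a single-exon copy on chromosome 12 (GRCm38, 66283379 to 66284401, minus strand) of the X-linked gene Rpl10, whose protein joins the large subunit late, near the peptidyl transferase centre. The reading frames have 642 bases each, 98 of them different (84.7% identity). The first 150 bases are shown to make the spread of those differences visible, with the 25 differing positions in capitals, from Rpl10 on the plus strand of X (74271002 to 74273064, with introns) and Rpl10l on the minus strand (66283716 to 66284357).
Rpl10: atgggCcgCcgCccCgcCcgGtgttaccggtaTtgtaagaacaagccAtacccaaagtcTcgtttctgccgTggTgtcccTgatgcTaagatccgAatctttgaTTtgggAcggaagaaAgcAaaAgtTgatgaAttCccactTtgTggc
Rpl10l: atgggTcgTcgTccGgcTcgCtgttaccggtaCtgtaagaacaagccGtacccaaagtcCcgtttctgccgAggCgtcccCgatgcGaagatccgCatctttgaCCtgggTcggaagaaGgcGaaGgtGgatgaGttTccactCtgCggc

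Rpl10l was listed at 105 and 102 TPM in wild-type set 1, 154 and 163 in wild-type set 2, 50.8 and 48.8 in mutant set 1, 28.7 and 29.3 in mutant set 2, and 93.4 and 82.6 in mutant set 3. Every mutant library was below every wild-type library, but the sets of each genotype were far apart, with mutant set 2 lowest and wild-type set 2 highest. The change was -1.33 ± 0.41 and was not called on set means (limma, adjusted p = 0.068). It was called in limma on the 10 libraries with sets as random effects (adjusted p = 0.012) and without mutant set 3 (0.037). The difference between the 3 mutant sets was called in its own right (limma F test, adjusted p = 0.00448). As a share of Rpl10 the level was 3.86 ± 1.18% in the wild type and 1.52 ± 0.978% in the mutant. No 31-base word of Rpl10l occurs in Rpl10, but 23.4% occur in some other gene, so its level is uncertain to that extent.

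**Figure D4:**
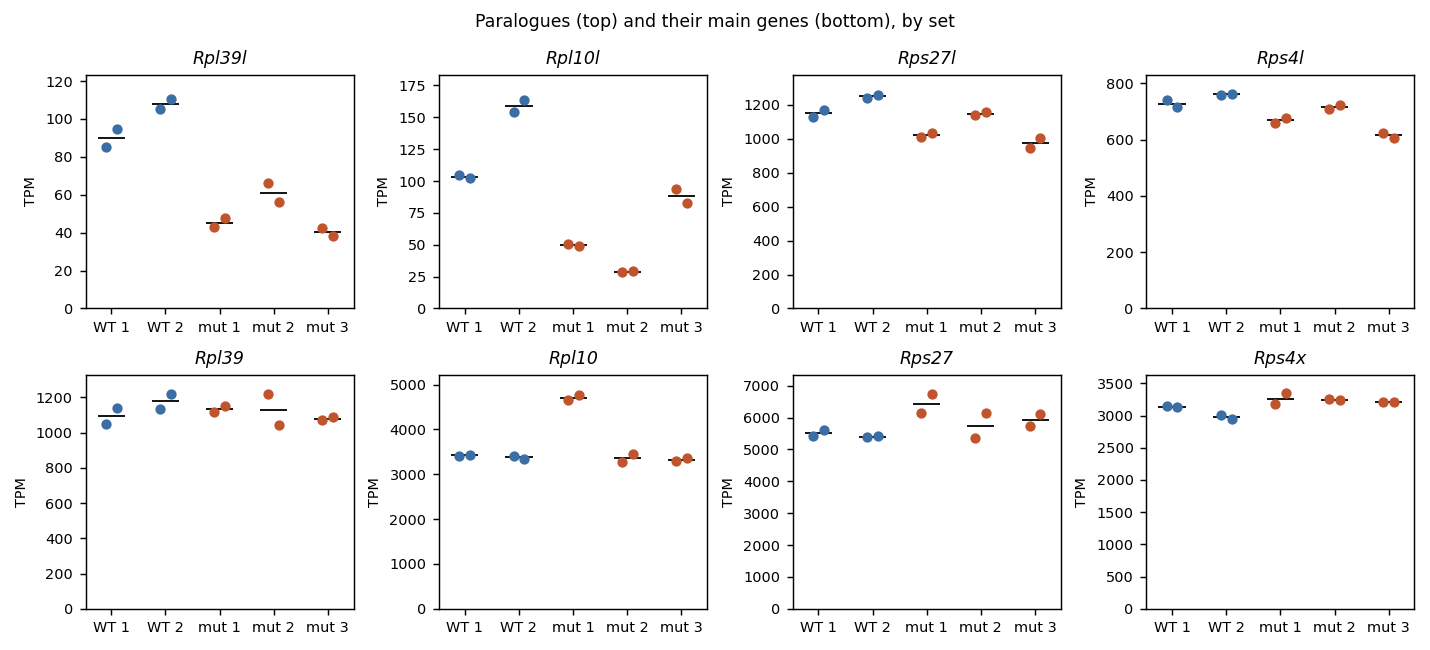
TPM of 4 paralogues (top) and their main genes (bottom) in each set (horizontal axis), with points for the 2 libraries, bars for their mean and axes from 0. Rpl39l and Rpl10l are lower in all mutant sets, while the libraries of Rpl39 overlap between the genotypes and only mutant set 1 of Rpl10 departs.

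For other paralogues a part of the sequence also lies in other genes: 26.0% of the 31-base words for Rps4l, 26.0% for Rpl36al, 20.8% for Rpl7l1, 20.4% for Rps27l and 0% for Rpl3l. None of these 5 was called in limma on the 5 set means. Rps27l, a copy of the zinc-finger protein Rps27 that is known as a p53 target, was listed at 1132 and 1172 TPM in wild-type set 1, 1243 and 1261 in wild-type set 2, 1009.5 and 1033 in mutant set 1, 1139 and 1159 in mutant set 2, and 945 and 1004 in mutant set 3. Mutant sets 1 and 3 were below the wild type and set 2 reached it, for a change of -0.20 ± 0.09 (limma, adjusted p = 0.148); without mutant set 2 it was -0.27 with an adjusted p of 0.045 in limma. Rps27 itself had a change of 0.14 ± 0.07, so that Rps27l stood at 22.01 ± 1.62% of Rps27 in the wild type and 17.5 ± 2.27% in the mutant. Rps4l, an intronless copy of the X-linked gene Rps4x, was at 744 ± 22.9 TPM in the wild type and 667 ± 50.9 TPM in the mutant, with its set means below the wild type and 1 library overlapping, and Rps4x at 3059.5 ± 114 TPM in the wild type and 3241 ± 29.3 TPM in the mutant. Rpl7l1, which acts in early assembly of the large subunit, had a change of -0.16 ± 0.07 beside -0.11 ± 0.06 for Rpl7. Rpl36al had a change of -0.06 ± 0.07 with overlapping sets, and its X-linked counterpart Rpl36a had one of 0.16 ± 0.06. The heart and muscle gene Rpl3l was near the floor, at 2.60 ± 0.0707 TPM in the wild type and 2.52 ± 0.581 TPM in the mutant, beside 1054 ± 24.7 TPM in the wild type and 1085 ± 77.9 TPM in the mutant for Rpl3.

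Copies that share most of their sequence with the main gene cannot be told from it with certainty. For Rps3a2 and Rps3a3, 84.8 and 67.2% of 31-base words occur in Rps3a1, and for Rpl6l 72.2% occur in Rpl6. Rps3a2 was listed above Rps3a1, at 2727 ± 6.21 TPM in the wild type and 2998 ± 76.6 TPM in the mutant against 826 ± 59.9 TPM in the wild type and 879.8 ± 39.2 TPM in the mutant, and Rps3a3 at 727 ± 8.60 TPM in the wild type and 808 ± 29.0 TPM in the mutant. Their changes had the same sign, 0.09 ± 0.07 for Rps3a1, 0.14 ± 0.06 for Rps3a2 and 0.15 ± 0.06 for Rps3a3. Rpl6l had a change of -0.16 ± 0.15 at a level of 4.66 ± 0.824 TPM in the wild type and 4.03 ± 0.424 TPM in the mutant, and Rpl6 one of -0.02 ± 0.05. Rps12l1, whose every 31-base word lies in Rps12, was listed at 13.3 and 14.8 TPM in wild-type set 1 and at 0 in the other 8 libraries. It was the member called between the wild-type sets, 1 of 87 (limma, adjusted p = 0.0165), where 0.0234% of all genes were called, and Rps12 was at 4470.1 ± 14.9 TPM in the wild type and 4156 ± 272 TPM in the mutant. The problem is wider than these copies: in the median main gene 40.2% of the 31-base words of the longest transcript occur in another gene, and the table lists 319 rows of ribosomal protein copies with a -ps suffix, which took 1.45% of TPM in the wild type and 1.54% in the mutant. Of 74 such copies tested, 2 were called higher and 1 lower by limma, beside 6.97% and 10.5% of all tested genes.

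Sets of the same genotype also differed from each other, tested with the libraries as units. Among the 6 mutant libraries 9 members were called by limma's F test on sets, of which 6 were main genes, where 7.77% of all tested genes were called. The smallest p were those of Rpl10l and Rpl10, followed by Rpl12 and Rps4l, and the others included Rps26, Rps21, Rpl36 and Rps27l. Rpl12 was listed at 2457 and 2477 TPM in wild-type set 1, 2429 and 2443 in wild-type set 2, 2859 and 2965 in mutant set 1, 2530.3 and 2539 in mutant set 2, and 2706 and 2709.7 in mutant set 3, highest in set 1, then set 3, then set 2 (limma F test, adjusted p = 0.0347). Rps4l had the order set 2, set 1, set 3 from high to low (741 and 715 TPM in wild-type set 1, 759 and 762 in wild-type set 2, 658 and 678 in mutant set 1, 709.7 and 724 in mutant set 2, and 624 and 607 in mutant set 3; limma F test, adjusted p = 0.038).

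Rpl10 departed from the other main genes in mutant set 1. It was listed at 3404 and 3433 TPM in wild-type set 1, 3403 and 3351 in wild-type set 2, 4665 and 4757 in mutant set 1, 3271 and 3459.6 in mutant set 2, and 3301 and 3357 in mutant set 3, so that all but mutant set 1 lay within a narrow band. Between the mutant sets it was called (limma F test, adjusted p = 0.00787), whereas between genotypes the change was 0.14 ± 0.15 (limma, adjusted p = 0.525), and -0.02 without mutant set 1. Its neighbours on X were examined after this value was seen. Mutant set 1 exceeded the mean of mutant sets 2 and 3 by 0.49 log2 units for Rpl10 and by a median of 0.37 for the 23 tested genes within 500000 bases of it, 21 of which were above 0 (range -0.14 to 0.71). The same measure had a median of -0.06 over 416 tested X-linked genes and 0.08 over the other 75 main genes. The other X-linked members were at 0.02 for Rps4x, 0.09 for Rpl36a and 0.04 for Rpl39. What sets this stretch of X apart in mutant set 1 was not tested.

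Features of the genes that the naming rule did not use were compared with all tested genes. Main genes had short transcripts, with a median of 706.5 bases against 1608 for all tested genes. A snoRNA gene lay within the gene body of 30 main genes (39.5%), against 2.06% of tested genes, with 58 snoRNA genes in all. Across the 76 main genes the log2 fold change had a Spearman rho of 0.13 with transcript length, -0.012 with GC content and 0.157 with mean TPM, as descriptions over genes that share libraries.

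Promoter windows of 300 bases (250 before and 50 after the start site; RefSeq, GRCm38.p6) were found for 56 of the 76 main genes, with 65 start sites, and for 7 of the 12 paralogues, with 9. A run of at least 8 C or T on the coding strand, touching the bases from -20 to 20 around the start site, was present in 49.2% of the main-gene promoters and 33.3% of the paralogue promoters, against 21.0% of all 32851 promoters. The letters CCGGAAG on either strand occurred in 38.5% of main-gene and 22.2% of paralogue promoters and in 8.86% of all. Unlike the features above, this background covers promoters of 27025 genes, whether or not they were tested here. TATAA on the coding strand from -40 to -15 occurred in 6.15, 0 and 3.52%. The 80 bases around the start site (60 before, 20 after) are shown for the pair Rpl39 and Rpl39l and for the main genes Rpl7a and Rps16. They set the called paralogue beside main genes of either direction. Capitals mark the longest such pyrimidine run only, so a run of 8 after the start site of Rpl39 is in lower case.
Rpl39: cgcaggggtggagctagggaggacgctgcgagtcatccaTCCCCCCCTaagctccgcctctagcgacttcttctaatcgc
Rpl39l: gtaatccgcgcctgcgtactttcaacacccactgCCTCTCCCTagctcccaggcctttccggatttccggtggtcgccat
Rpl7a: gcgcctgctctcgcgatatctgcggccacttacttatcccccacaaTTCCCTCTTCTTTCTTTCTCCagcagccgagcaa
Rps16: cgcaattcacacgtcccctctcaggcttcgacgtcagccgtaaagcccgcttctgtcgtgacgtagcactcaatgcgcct

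These windows are chrX:37085203-37085282 on the minus strand for Rpl39, chr16:10170168-10170247 on the plus strand for Rpl39l, chr2:26910747-26910826 on the plus strand for Rpl7a and chr7:28350629-28350708 on the plus strand for Rps16. The run has 21 bases in Rpl7a and 9 in both Rpl39 and Rpl39l. Rps16 has none that touches the searched bases around the start site. A run of 9 C or T in its printed window lies farther upstream, outside those bases, and is in lower case. The runs are matches of letters around annotated starts and not measured start sites.

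The machinery that makes and regulates ribosomes was described from lists of related genes, to be read against the 6.97% of all tested genes called higher and the 10.5% called lower. Of 55 tested ribosome assembly factors 14 fell and 0 rose by limma, with a median log2 fold change of -0.23. They include Ddx21 at -0.68 ± 0.13, a nucleolar helicase of rRNA transcription and processing, Riok2 at -0.44 ± 0.08, a kinase of late small-subunit maturation, Nop16 at -0.42 ± 0.09, and Nmd3 at -0.40 ± 0.08, the export adaptor whose release is coupled to loading of Rpl10. Of 15 genes of RNA polymerase I and its factors 4 fell and 0 rose, with a median of -0.15: Taf1a -0.75 ± 0.14 and Taf1b -0.56 ± 0.09 of the promoter selectivity factor, the polymerase subunit gene Twistnb -0.43 ± 0.09, and Tcof1 -0.35 ± 0.09, the gene of Treacher Collins syndrome. Ddx21 was listed at 142 and 141 TPM in wild-type set 1, 141 and 138 in wild-type set 2, 75.3 and 71.4 in mutant set 1, 103 and 104 in mutant set 2, and 86.1 and 86.9 in mutant set 3, and all mutant libraries lay below all wild-type libraries. Between the mutant sets, 12 of the 55 assembly factors were called by limma's F test, where 7.77% of all tested genes were.

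Other TOP transcripts were split. Of 15 tested translation factors and non-ribosomal TOP transcripts 6 fell and 0 rose by limma, with a median of -0.04 as in all genes. Npm1, the nucleolar chaperone nucleophosmin, was listed at 3629 and 3525 TPM in wild-type set 1, 3632 and 3654 in wild-type set 2, 2281 and 2323 in mutant set 1, 2584 and 2583 in mutant set 2, and 2254 and 2317 in mutant set 3, for a change of -0.60 ± 0.07 (limma, adjusted p = 0.00652). Its mutant libraries were all lower, as were those of the RNA-binding protein gene Hnrnpa1 (-0.54 ± 0.06), the histone chaperone gene Nap1l1 (-0.52 ± 0.07) and the poly(A)-binding protein gene Pabpc1 (-0.38 ± 0.07). Of 22 regulators of TOP translation and ribosome production 4 fell and 0 rose, with a median of -0.12: Larp4 -0.37 ± 0.08, Larp1 -0.34 ± 0.09, which binds the TOP motif, Ssb -0.28 ± 0.07, the La protein, and Eif4ebp1 -0.27 ± 0.07, an inhibitor of cap-dependent initiation that mTOR phosphorylates. Of 6 chaperones dedicated to ribosomal proteins 0 were called by limma and 0 were under an unadjusted p of 0.05, with the smallest p for Heatr3 (-0.20 ± 0.09) and Grwd1 (-0.16 ± 0.10). The called genes named from these lists of assembly, polymerase I, TOP and regulator genes kept their direction but lost their call without wild-type set 1 and without wild-type set 2, as Npm1 did with adjusted p of 0.070 and 0.102 in limma.

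Outside the naming rule, Fau, whose protein is made as a fusion with a ubiquitin-like protein, had a change of 0.17 ± 0.09 and was not called (limma, adjusted p = 0.241). The mitochondrial ribosome, a separate machine built from other nuclear genes, had 4 of 78 tested genes called higher and 7 called lower. Of all tested genes 6.97% were called higher and 10.5% lower. The median change of the mitochondrial genes was -0.11. Mrps23 rose by 0.69 and Mrps26 by 0.40, and Mrps12 fell by 0.68 and Mrpl40 by 0.54. All main cytosolic genes lay inside the range from -0.23 to 0.22, while the mitochondrial ones ranged from -0.68 to 0.69. The mitochondrial genes had lower levels (median 59.8 against 2895 TPM) and a larger median SE (0.085 against 0.063).

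**Figure D5:**
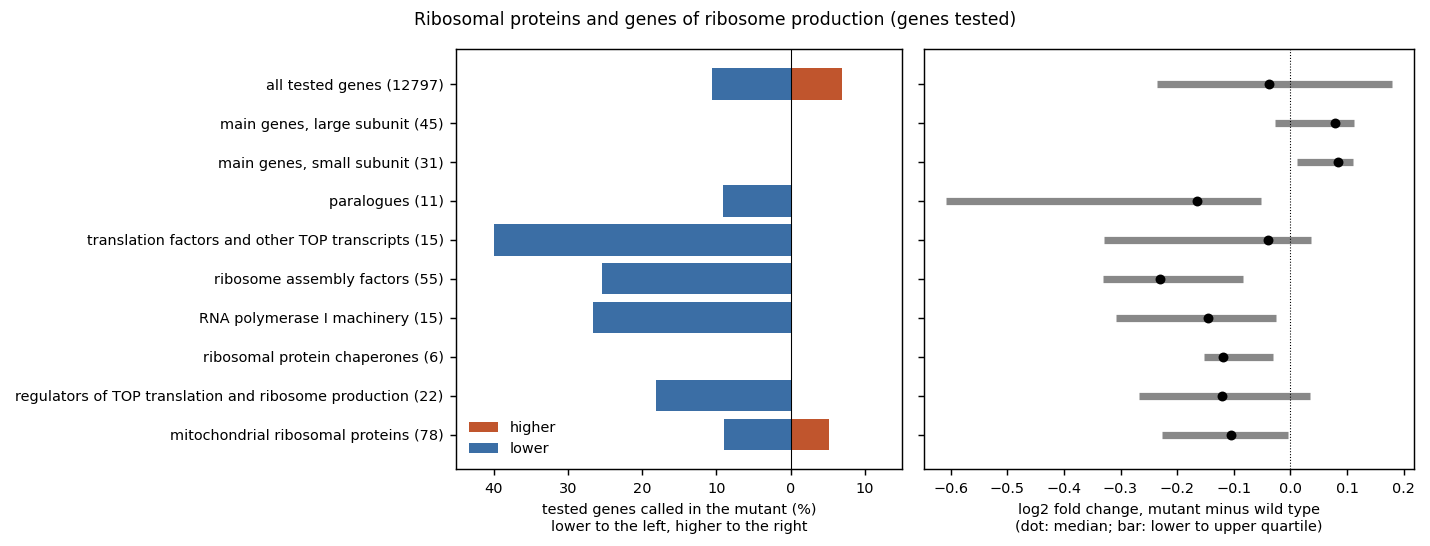
Left, percent of tested genes called lower (to the left) and higher (to the right) in the mutant for each gene group; right, median log2 fold change (dot) and the span from the lower to the upper quartile of its genes (bar). Main ribosomal protein genes have 0 calls and medians of 0.08, and ribosome assembly factors have 14 of 55 called lower and a median of -0.23.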

How the data were processed

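Poly(A) RNA of 4 wild-type and 6 ANKRD11 Y347A mutant libraries was measured. The authors deposited TPM. The submitters' processing notes name Trim Galore, STAR, RSEM, DESeq2 and build mm10; their versions and settings, the strand mode and the handling of reads shared between near-identical genes are not given there.

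All 10 columns were matched by name, and 0 were unused. GENCODE M21 (GRCm38, which mm10 denotes) held 55141 of the 55401 Ensembl identifiers and all 88 members. TPM were taken as log2(TPM + 1), with a pseudocount of 1, genes under a mean of 1 TPM were dropped, and libraries were averaged by set. The 2 wild-type and 3 mutant set means entered limma (version 3.58.1, under R 4.3.3) with eBayes, a variance trend, 4.01 prior and 3 residual degrees of freedom and two-sided tests. Sets within a genotype were compared in limma over libraries. No count model was used, since TPM are not counts.

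The members and lists were chosen with earlier results of these data known, and the retrocopies Rpl6l, Rpl32l and Rps12l1 were assigned to the paralogues after the table was read. Named genes were called members, paralogues with their main genes, the 4 with the highest TPM, the member nearest the median change, up to 4 called between sets, and up to 4 called genes per related list (2 where none was called); others are marked as picked afterwards. Alternatives changed the pseudocount, filter, scaling, unit and variance model, corrected for GC or length, or left out a set or library. Some genes are not reported here.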

Additional observations from a re-analysis of the deposited data

Results flagged for a closer look

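Among the levels of the members named by rule, 4 of 53 groups of libraries held a library that stood apart from the rest of its genotype, judged by its gap to the nearest library divided by the group's range; chance gives about 1 in 20 groups. In the mutant, library 2 of set 1 had 3672 TPM for Rpl36a, where the other mutant libraries had 3307 to 3425 TPM, a ratio of 0.676 against a limit of 0.625 for 6 libraries. The same library had 10592 TPM for Rps24, with the others at 9373 to 9724 TPM and a ratio of 0.712. In the wild type, library 2 of set 1 had 5628 TPM for Rps27, with the others at 5401 to 5412 TPM, a ratio of 0.953 against a limit of 0.829 for 4 libraries. Library 1 of wild-type set 2 had 6276 TPM for Rps2, with the others at 6083 to 6106 TPM and a ratio of 0.884.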

How the results depend on the processing

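The count of members called higher, 0 (6.97% of all genes), became 3 with quantile normalization (8.38%), 24 with 10 libraries as units (16.9%), 11 with the set as a random block (10.4%), 4 with the set and replicate number as a replicate block (10.9%), and 5 with a length correction (8.75%). The count called lower, 1 (10.5%), became 0 without the filter (2.13%) or with library 1 of each set alone (5.57%), 2 with a minimum of 5 TPM (12.3%), robust variance moderation (10.9%), a GC correction (8.61%) or the set number as a replicate block (2.83%), 7 with the set and replicate number as a replicate block (18.7%), 10 with the random block (16.1%), 11 with quantile normalization (8.12%) and 14 with 10 libraries (24.2%). Leaving out a set or a library gave 0 to 3 higher (0.0781 to 7.85% of all genes) and 0 to 3 lower (0.2501 to 10.9%); 0 lower came when wild-type set 1 or mutant set 1 was left out, 3 of each without mutant set 2, and 2 lower without mutant set 3, library 1 of wild-type set 1 or library 2 of mutant set 1. Without wild-type set 2 the member counted as lower was not Rpl39l but Rps12l1 (change of -3.91), which was above 0 TPM in wild-type set 1 only. The causes were not tested.

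The median change of the members was 0.016 to 0.076 when a set or library was left out. For the large subunit it was -0.015 to 0.066 and for the small subunit 0.037 to 0.11. Over the 16 other settings it was 0 to 0.090 for all members, -0.0071 to 0.077 for the large and 0.0036 to 0.12 for the small subunit. Quantile normalization gave the lowest value of each, but it can itself remove a shift shared by the highest genes. The highest value of each came with median-of-ratios scaling. The share of TPM was 25.7% and 26.6% in wild type and mutant with ribosomal protein genes outside the naming rule added, and 26.3% and 27.6% outside mitochondrially encoded transcripts. Median-of-ratios scaling gave 1095 genes higher and 1096 lower over all genes, and quantile normalization 1073 and 1039, against 892 and 1350.

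Uncalled genes near 0 changed sign. Rpl39 became 0.015 with median-of-ratios scaling, 0.056 with library 1 alone, 0.045 with GC and 0.021 with length correction. Rpl6 became 0.026, 0.023 and 0.014 with median-of-ratios scaling, GC and length correction. Rpl23a became 0.035 with median-of-ratios scaling, 0.0092 with a total without ribosomal protein genes, 0.018 with library 2 alone, 0.078 with GC and 0.039 with length correction. Rps2 became -0.035 with quantile normalization and -0.012 with GC correction, and Rpl3l 0.022 with library 1 alone. With a set or library left out, Rpl3l ranged from -0.14 to 0.098, Rpl3 from -0.019 to 0.078, Rpl10 from -0.022 to 0.23, Rpl39 from -0.082 to 0.027 and Rpl23a from -0.030 to 0.029.

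Same-numbered libraries did not deviate together (correlations of 0.049, -0.066, -0.056 and -0.042), so the numbers were not taken as pairs. Over all genes 2242 were called, and 196, 42, 654, 2393 and 920 without wild-type set 1, wild-type set 2, mutant set 1, mutant set 2 and mutant set 3. Depth is unknown, so counting error could not be given.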
